A study of Mus musculus with 24 samples.

Results

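The change in gene expression between the first day and the end of the first week after reperfusion was examined in infarcted mouse hearts treated with insulin-like growth factor 1 (IGF1). The 8 samples, of 24 in the series, were those whose titles name the infarct area, IGF1 and either 24 h (4 samples) or 168 h (4 samples). All mice were male C57BL6/J animals without a stated genetic change. A snare closed the left anterior descending coronary artery for 45 min and was then opened, so that each heart was reperfused. Treated mice received 40 ng/g of recombinant mature IGF1 under the skin when reperfusion began, followed by 1 µg/g per day from an implanted osmotic pump over the first 3 days. Hearts taken at 24 h were therefore still within the period of delivery, and hearts taken at 168 h were past it. Total RNA came from the part of the anterior wall at risk, a bulk tissue that holds muscle, vessel, connective tissue and blood-borne cells together. The study also held vehicle hearts (carrier solution of PBS with bovine serum albumin, 4 samples at 24 h and 4 at 168 h) and 48 h hearts of both kinds, which enter here for comparison. The sample labels of the vehicle hearts name the same 45 min of ischemia, whereas the design text of the series calls the controls sham-operated. The sample labels were followed.

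A reperfused infarct heals in overlapping phases. Dying muscle draws in neutrophils and then monocytes, macrophages clear the debris, and fibroblasts multiply and become matrix-secreting cells that replace the lost muscle with a collagen scar. IGF1 signals through a receptor tyrosine kinase to the PI3 kinase and AKT pathway and is known in the heart for promoting survival of muscle cells and for acting on myeloid cells.

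The 8 arrays were alike within each time. Pearson correlations across genes were 0.984 to 0.991 between arrays at 24 h, 0.99 to 0.992 at 168 h, and 0.926 to 0.951 between the times. Between 52.7% and 62.9% of spots were well above background on each of the 24 arrays and 0 spots were saturated. The labelled tissue was borne out by the contractile genes of heart muscle, since all 23 of the 23 looked for were measured, with list means of 5.60 to 6.02 on the 8 arrays. The arrays sat on 4 slides, each scanned once. The 4 arrays at 24 h were on slides 1, 2, 3 and 4, while 3 of the 168 h arrays were on slide 1 and the fourth was on slide 4, so time and slide were partly confounded and the change could be read within a slide on slides 1 and 4. The labels do not say whether the replicates of a group are separate animals. Nothing in them says that replicate numbers mark separate litters or days, so p-values here reflect the variation among these samples alone.

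Levels are log2 of the scanner's processed signal minus the 75th percentile of that array, and a change is the mean level at 168 h minus that at 24 h, so that a change of 1 is a 2-fold rise. Of 15874 genes tested, 9214 passed an adjusted p of 0.05 (58%), of which 4165 were higher at 168 h (26.2% of those tested) and 5049 were lower (31.8%). The change was over 2-fold for 1775 of the higher genes (11.2%) and for 840 of the lower genes (5.29%). For 8153 genes (51.4%) the 4 arrays of one time did not overlap those of the other. The balance of higher and lower genes rested on the scaling: with each array set to its median in place of its 75th percentile, 3243 genes were higher and 6078 lower, the median over all genes moved from -0.05 to -0.18, and changes of lists are best read relative to those medians. Of 44 genes fixed by name, 16 rose, 20 fell and 8 did not pass.

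The largest rises were in genes of connective tissue and the largest falls in genes of neutrophils. Ecrg4, a secreted augurin precursor, had levels of -6.66, -4.65, -5.88 and -6.84 at 24 h and 3.59, 2.98, 3.11 and 2.82 at 168 h. All 168 h arrays lay far above all 24 h arrays, a change of 9.13 (SE 0.41, adjusted p 1.03e-12), although 1 of the 4 arrays at 24 h was well above background. C1qtnf3, a secreted C1q and TNF related protein of cartilage and fat, was not well above background on any 24 h array, so its rise to levels of 2.90 to 3.40 was at least 268-fold (adjusted p 5.4e-14). Such a bound sets the bright group against the lowest signal that counts as well above background. Cxcl3, a neutrophil-attracting chemokine, went from levels of 0.74 to 1.82 to a signal not well above background at 168 h, a fall of at least 92.2-fold (adjusted p 1.74e-09). Wfdc21, a small secreted protein rich in cysteines, went from levels of 1.40 to 2.71 down to -6.78 to -4.17, and Stfa2l1, a stefin of neutrophils, from 0.57 to 1.64 down to -7.26 to -3.97. Each was well above background on 1 of the 4 arrays at 168 h. These sizes rest on the scanner's background correction. With normexp correction and an offset of 50, which draws dim signals together, the changes of 33 of 163 genes examined were over 1.5 times smaller, and the fitted changes fell short of the bounds given here, at 70.3-fold for C1qtnf3, 27.7-fold for Cxcl3, 36.3-fold for Col8a2, 16-fold for Col11a1, 12.9-fold for Cemip, 7.39-fold for Lrrc15, 3.52-fold for Cxcl2 and 1.7-fold for Clec9a. Ecrg4 then rose 69.9-fold and Comp 218-fold, and all of these genes were still called in the same direction. The bounds hold for the scanner's correction alone.

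**Figure D1:**
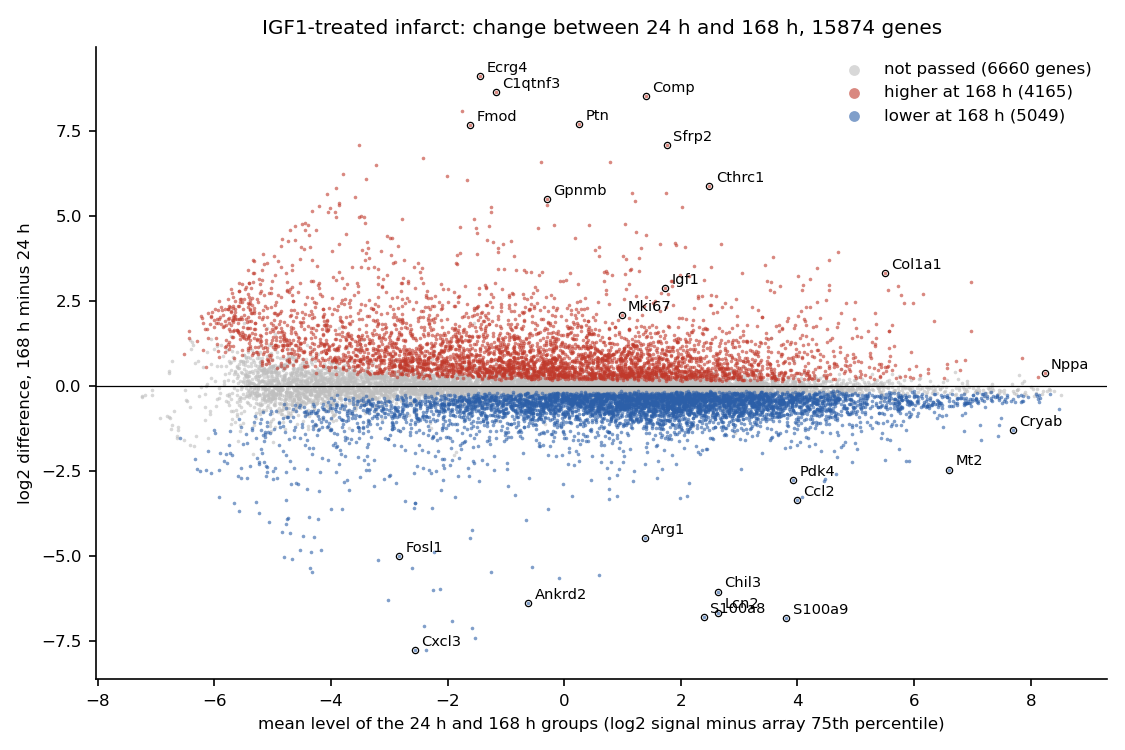
Log2 change from 24 h to 168 h (vertical axis) against the mean log2 level of the 2 groups (horizontal axis) for each of 15874 genes in the IGF1-treated infarct, red where higher (4165 genes), blue where lower (5049) and grey where the test was not passed. Connective tissue genes such as Comp and Ecrg4 reach the top, and neutrophil genes such as S100a9 and Lcn2 reach the bottom at middle to high levels.

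Genes were then grouped into 55 lists, of which 21 hold markers of cell types and 34 hold pathways, with 977 of their 1042 genes measured. Counts for a list are read against the background shares of 26.2% higher and 31.8% lower. Members and lists were chosen with earlier results of these data known, so the counts describe the lists and test nothing.

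**Figure D2:**
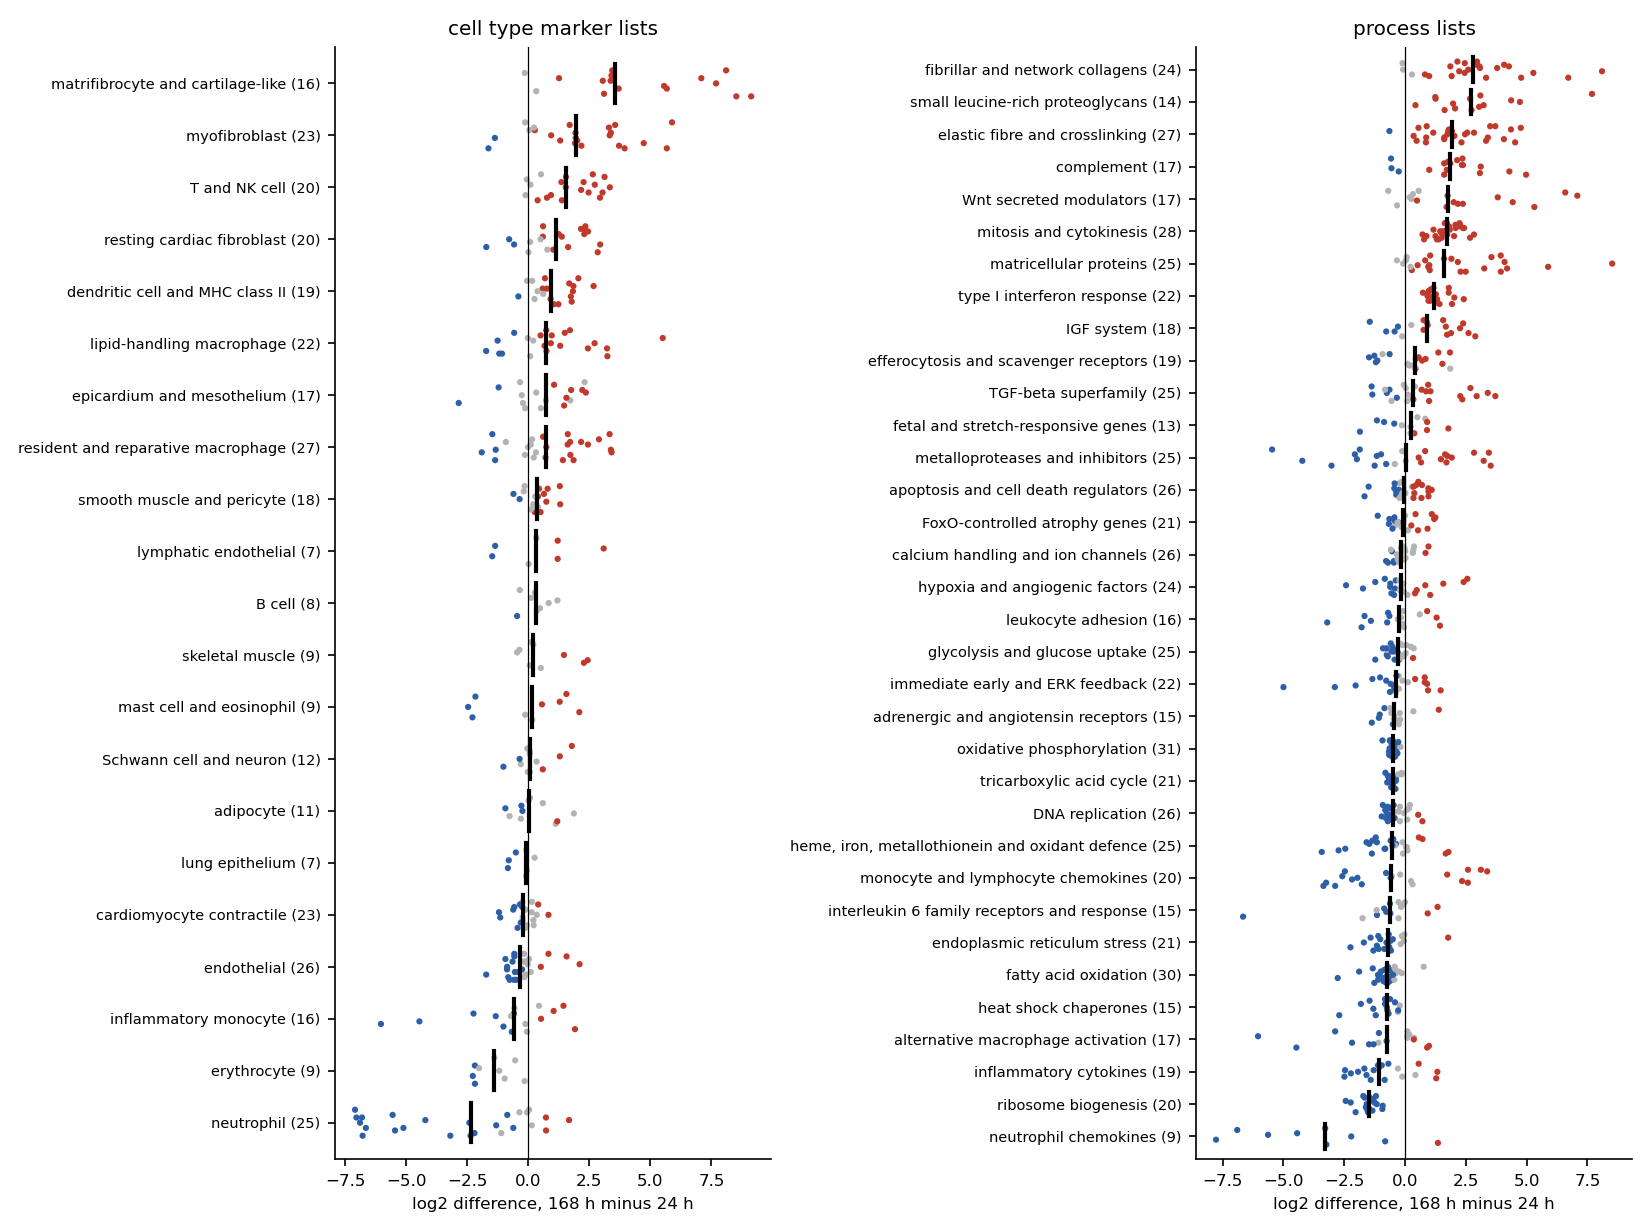
Log2 change from 24 h to 168 h of each measured member of the cell type lists (left) and process lists (right), 1 point a gene, with the number of measured genes in brackets and the median as a black bar. Points are red for genes called higher, blue for genes called lower and grey for the rest. Matrix lists lie on the right and neutrophil and ribosome lists on the left.

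Neutrophil transcripts were low by 168 h. Of 26 neutrophil markers 25 were measured, and 17 fell, 3 rose and 5 did not pass, with a median change of -2.37 against -0.05 over all genes. The mean of the list per array was 0.51 to 0.92 at 24 h and -2.70 to -1.70 at 168 h. S100a8, a subunit of the calprotectin complex that neutrophils store, stood at 5.41, 5.68, 5.98 and 6.12 at 24 h and at -2.22, -1.61, 0.42 and -0.57 at 168 h. The times did not overlap, and the spread was wider at 168 h. It fell by 6.79 (SE 0.75, adjusted p 1.83e-07), which is 111-fold. Its partner S100a9 went from 6.99, 7.05, 7.41 and 7.42 to -0.61, -1.23, 2.31 and 1.13, and fell 113-fold (adjusted p 6.31e-07), with a change of -7.45 in place of -6.82 without replicate 3 at 168 h. Lcn2, the iron-scavenging lipocalin, dropped from 5.73, 6.45, 5.90 and 5.81 to -1.34, -0.87, -0.40 and -0.13, and fell 101-fold (adjusted p 3.7e-11). Falls of the same order were seen for Retnlg (fell by 7.10, SE 0.84) and for the chemokine receptor Cxcr2 (fell by 6.90, SE 0.88), both well above background on 2 of the 4 arrays at 168 h, while the neutrophil collagenase Mmp8 fell by 4.22 (SE 0.36). The change of Cxcr2 was -6.22 without replicate 1 at 168 h and -7.59 without replicate 3, and that of Retnlg was -6.47 without replicate 2. Ly6g, the surface antigen used to sort neutrophils, changed far less: it went from -0.14, -0.05, -0.19 and 0.18 to -0.94, -0.49, -0.81 and -0.42, a fall of 0.62 (SE 0.15, adjusted p 0.00155). In bulk tissue, fewer cells of a type and less RNA per cell cannot be told apart.

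Chemokines that draw neutrophils mostly fell as well, in a list that also holds receptors. Of 9 neutrophil chemokines and receptors 8 fell and 1 rose, with a median of -3.28. The list shares the receptors Cxcr1 and Cxcr2 with that of neutrophil markers, so the 2 counts are not separate. Cxcl1 had levels of 2.17, 2.69, 2.63 and 2.59 at 24 h and -0.97, -1.30, -0.11 and -0.43 at 168 h. The 2 sets lay more than 2 log2 units apart, and the change was -3.23 (SE 0.25, adjusted p 1.29e-09). Ppbp, the chemokine of platelets, fell by 5.63 (SE 0.49, adjusted p 5.91e-09). Cxcl2 was not well above background at 168 h and fell at least 8.76-fold (adjusted p 3.88e-07).

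Cytokines fell as a group, with exceptions. Of 19 measured inflammatory cytokines and related genes 13 fell and 3 rose, with a median of -1.05. Il6, the acute phase cytokine, went from 0.47, 1.15, 1.15 and 1.33 to -0.73, -1.13, -0.08 and -0.29. Its arrays did not overlap, and it fell by 1.58 (SE 0.34, adjusted p 0.00046). Il1b, the fever cytokine released by inflammasomes, fell by 1.41 (SE 0.42, adjusted p 0.00662), but its arrays overlapped and the call was lost with slide as a fixed block (adjusted p 0.0515). Hbegf, a membrane-bound ligand of the EGF receptor, fell by 1.93 (SE 0.29). Il18, an inflammasome cytokine of macrophages, moved the other way, from -2.22, -2.07, -2.11 and -2.22 to -0.99, -0.66, -0.94 and -0.69, a rise of 1.33 (SE 0.17, adjusted p 7.89e-07). Socs3, the feedback inhibitor that interleukin 6 induces, went from 3.19, 3.45, 3.41 and 3.51 to 2.35, 2.11, 2.19 and 2.32 (adjusted p 4.81e-06). Among the 15 genes of interleukin 6 family receptors and response 6 fell and 2 rose.

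Of 20 measured genes of monocyte and lymphocyte chemokines 10 fell and 6 rose. Ccl2, the main ligand of CCR2, had levels of 5.32, 6.08, 5.53 and 5.76 at 24 h and 1.12, 3.17, 2.29 and 2.69 at 168 h. Its neighbour in function Ccl7 went from 3.39, 3.98, 3.65 and 3.88 to -0.66, 1.32, 0.29 and 0.98. Neither gene's arrays overlapped, and the falls were 3.35 (SE 0.29, adjusted p 5.54e-09) and 3.24 (SE 0.30, adjusted p 1.32e-08). Their 48 h means, 6.32 and 4.81, were higher than those at 24 h. Ccl5, a chemokine made by T and NK cells, rose from -1.96, -1.22, -1.57 and -1.38 to 1.77, 1.87, 1.33 and 1.39, a change of 3.12 (SE 0.26, adjusted p 4.38e-09).

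Markers of recruited monocytes were split. Of 16 genes 7 were lower, 4 were higher and 5 missed the threshold (median -0.58). Chil3, a chitinase-like protein of early monocytes, was at 5.07, 6.37, 5.22 and 5.95 at 24 h and at -2.97, 0.47, -0.47 and 1.41 at 168 h. Arg1, the arginase of alternatively activated macrophages, was at 3.62, 4.26, 3.49 and 3.10 and then at -0.71, -2.02, -0.36 and -0.28. Both sets of arrays stayed apart, with changes of -6.04 (SE 0.71, adjusted p 3.9e-07) and -4.46 (SE 0.95, adjusted p 0.000414). The change of Chil3 was -5.18 without replicate 1 at 168 h and -6.64 without replicate 4. On slides 1 and 4 alone the fall of Arg1 was 4.21 with adjusted p 0.0516. The defining surface and chemokine receptor genes of these cells moved less. Ly6c2 went from 5.97, 6.31, 5.88 and 6.06 to 5.23, 5.62, 5.30 and 5.36 and fell by 0.68 (SE 0.13, adjusted p 0.000123), and Ccr2 fell by 0.59 (SE 0.16, adjusted p 0.00272), a call lost on slides 1 and 4 alone (adjusted p 0.0955). The list of alternative macrophage activation, which shares Arg1 and Chil3 with that of monocytes, had 8 of 17 genes lower and 3 higher. Fn1, fibronectin, which monocytes and fibroblasts both make, rose from 5.56, 5.61, 5.43 and 4.94 to 7.36, 7.17, 7.29 and 7.36 (adjusted p 1.55e-09).

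Macrophage genes rose. Of 27 genes of resident and reparative macrophages 15 rose and 4 fell, and of 22 genes of lipid-handling macrophages 14 rose and 5 fell, with medians of 0.70 and 0.74. Adgre1, which encodes a surface receptor used to stain macrophages, had levels of 1.73, 1.48, 1.60 and 1.09 at 24 h and 3.37, 3.81, 3.88 and 3.48 at 168 h. Csf1r, the receptor for the macrophage growth factor CSF1, had 4.41, 4.33, 4.22 and 3.95 and then 5.50, 5.68, 5.62 and 5.75. For both genes every 168 h array lay above every 24 h array, with changes of 2.16 (SE 0.16, adjusted p 5.7e-10) and 1.41 (SE 0.10, adjusted p 1.84e-10). Cx3cr1, the fractalkine receptor, named here after its values were seen, rose by 3.41 (SE 0.27, adjusted p 1.55e-09). Trem2, a lipid-sensing receptor, went from 1.53, 1.79, 1.75 and 1.11 to 3.79, 4.53, 3.68 and 3.93, a rise of 2.44 (SE 0.20, adjusted p 2.3e-09). The glycoprotein gene Gpnmb went from -2.77, -3.20, -2.56 and -3.67 to 1.34, 4.01, 1.95 and 2.52, which was the largest rise in the list at 5.50 (SE 0.39, adjusted p 3.83e-10), with 168 h arrays spread over more than 2 log2 units. Apoe, the lipid carrier, rose by 2.71 (SE 0.17) and Ctsk, a lysosomal collagen-degrading protease, by 3.24 (SE 0.19).

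Lyve1 and Mrc1, which mark macrophages of the uninjured heart, did not rise. Lyve1, a hyaluronan receptor of resident macrophages and of lymphatic vessels, had levels of 0.14, 0.71, 0.01 and 0.37 at 24 h and -1.12, -0.98, -1.23 and -0.88 at 168 h, and fell by 1.36 (SE 0.23, adjusted p 4.06e-05). Mrc1, the mannose receptor, had a change of 0.10 (SE 0.14, adjusted p 0.573), and with each array set to its median it was -0.03. Spp1, osteopontin, had a change of 0.08 (SE 0.47, adjusted p 0.906). Its levels were 5.46, 5.07, 5.40 and 4.58 at 24 h, whereas the 168 h arrays read 3.27, 7.10, 4.58 and 5.85, the lowest below and the highest above all 24 h arrays, and its sign turned in 5 of the alternatives run.

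All complement genes were called: of 17 genes 14 rose and 3 fell, with a median of 1.86. C2, the protease of the classical pathway, had levels of -3.42, -3.07, -4.17 and -3.20 at 24 h and 1.00, 0.74, 0.64 and 0.93 at 168 h, with no overlap and a rise of 4.29 (SE 0.30, adjusted p 3.29e-10). The complement component C4b rose by 3.12 (SE 0.21), the activating protease C1ra by 2.36 (SE 0.14) and the inhibitor Cd55 by 1.86 (SE 0.14).

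Lymphocyte and antigen-presentation genes were higher at 168 h. Of 25 T and NK cell markers 20 were measured, of which 16 rose and 0 fell (median 1.54). Their levels were low, with a list mean of -3.93 to -3.41 at 24 h and -2.16 to -1.87 at 168 h. The B cell list had -3.98 to -3.57 at 24 h. Across the alternatives run 12 to 16 T and NK cell genes were called higher, with medians of 0.577 to 1.77. Nkg7, a granule protein of cytotoxic cells, went from -4.25, -4.03, -4.07 and -4.43 to -1.11, -0.87, -1.32 and -1.32, and Gzma, a granzyme, from -3.02, -3.12, -3.06 and -3.28 to -0.78, -0.77, -0.68 and 0.30. Neither overlapped between times, with rises of 3.04 (SE 0.21, adjusted p 2.27e-10) and 2.64 (SE 0.21, adjusted p 1.92e-09). With normexp correction these rises were 1.73 and 1.89. Cd3e, part of the T cell receptor complex, rose by just 0.38 (SE 0.12, adjusted p 0.0107), and that call was lost in 3 alternatives, with adjusted p 0.28 when the probes of a gene were averaged. Of 19 measured genes of dendritic cells and MHC class II 13 rose and 1 fell. H2-Eb1 went from 3.29, 3.04, 3.16 and 2.47 to 5.66, 5.04, 5.06 and 4.39 (adjusted p 2.85e-07), H2-Aa rose by 1.84 (SE 0.22), and their chaperone Cd74, the invariant chain, rose by 1.23 (SE 0.25). Clec9a, a receptor of cross-presenting dendritic cells, was not well above background at 24 h and rose at least 2.98-fold (adjusted p 1.54e-06). B cell genes were few and near background, with 8 of 12 measured, 1 lower and 0 higher. Of 9 measured genes of mast cells and eosinophils 4 rose and 3 fell: the mast cell protease Mcpt4 rose by 2.09 (SE 0.41, adjusted p 0.000201), while the eosinophil genes Siglecf and Ear2 fell by 2.17 (SE 0.30, adjusted p 3.03e-06) and 2.29 (SE 0.26, adjusted p 2.49e-07), Siglecf being well above background on 3 of the 4 arrays at 168 h.

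Interferon-induced genes rose without exception among those measured, 22 of 22 (24 in the list), with a median of 1.17 and values between 0.74 and 2.42. Ifit3 had levels of -0.64, -0.51, -0.30 and -0.34 at 24 h and 2.09, 2.28, 1.65 and 1.87 at 168 h. Irf7, the transcription factor that amplifies the response, had 2.26, 2.43, 2.12 and 2.73 and then 4.21, 4.55, 4.06 and 4.83. The arrays of the 2 times were fully apart in both, with rises of 2.42 (SE 0.25, adjusted p 8.15e-08) and 2.03 (SE 0.23, adjusted p 2.11e-07). The ubiquitin-like modifier Isg15 rose by 1.80 (SE 0.22) and the virus-tethering protein Bst2 by 1.26 (SE 0.15). Across the alternatives run, 20 to 22 of them were called higher and 0 lower.

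Genes of the extracellular matrix made up the strongest rise. All 24 collagen genes of the list were measured, of which 21 rose and 0 fell, with a median of 2.78, and the list mean moved from between 0.16 and 0.51 to between 3.13 and 3.43. Col1a1, the main chain of the fibres of a scar, had levels of 3.96, 4.06, 3.77 and 3.53 at 24 h and 7.16, 7.00, 7.13 and 7.36 at 168 h. Its fibre partner Col3a1 had 4.86, 4.82, 4.58 and 4.17 and then 7.03, 6.87, 7.03 and 7.32. Both separated completely, Col1a1 rising 10.1-fold (3.33, SE 0.15, adjusted p 8.51e-13) and Col3a1 by 2.46 (SE 0.16, adjusted p 8.93e-11). Chains that are minor in the heart rose further. Col12a1, which decorates collagen fibres, rose by 4.27 (SE 0.16), and Col8a2 and Col11a1, not well above background at 24 h, rose at least 143-fold (adjusted p 8.72e-11) and at least 57.8-fold (adjusted p 2.08e-11).

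Small leucine-rich proteoglycans, which bind collagen and set the width of its fibres, rose in 14 of 14 measured genes (16 in the list), with a median of 2.71. Fmod, fibromodulin, had levels of -5.84, -4.54, -5.28 and -6.16 at 24 h and 2.79, 2.18, 2.16 and 1.81 at 168 h, with more than 6 log2 units between the sets. It rose by 7.69 (SE 0.38, adjusted p 2.53e-12), with 1 of the 4 arrays at 24 h well above background. Aspn, asporin, rose by 4.73 (SE 0.23), Lum, lumican, by 3.23 (SE 0.14) and Ogn, osteoglycin, by 3.05 (SE 0.20).

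Matricellular proteins, which regulate cells from within the matrix, rose in 20 of 25 genes and fell in 0 (median 1.61). Comp, the cartilage oligomeric matrix protein, read -2.94, -1.96, -3.00 and -3.56 at 24 h and 6.40, 5.46, 5.97 and 4.79 at 168 h. Its 367-fold rise (8.52, SE 0.45, adjusted p 6.8e-12) was over 6 log2 units beyond the median of its list. Postn, periostin, the product of activated fibroblasts, went from 2.19, 3.19, 2.75 and 2.73 to 6.59, 6.66, 6.76 and 6.62, again without overlap (3.94, SE 0.23, adjusted p 2.93e-11). Thbs2, a thrombospondin, rose by 4.09 (SE 0.24). Tnc, tenascin C, had 0.00, 0.69, 0.79 and 0.44 at 24 h and 0.04, 0.73, 0.42 and 0.89 at 168 h, wholly overlapping, with a change of 0.04 (SE 0.24, adjusted p 0.909) whose sign turned in 6 alternatives, and a 48 h mean of 1.36 above both.

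Genes that assemble elastic fibres and crosslink collagen rose in 26 of 27 cases and fell in 1, with a median of 1.93. Lox, the enzyme that crosslinks collagen and elastin, went from 0.78, 1.89, 1.29 and 1.58 to 4.92, 4.41, 4.88 and 4.66 (3.33, SE 0.21, adjusted p 8.93e-11). The microfibril gene Mfap4 rose by 4.76 (SE 0.21), the latent TGF-beta binding protein Ltbp2 by 3.71 (SE 0.20) and fibrillin 2, Fbn2, by 3.41 (SE 0.15). In the TGF-beta superfamily 12 of 25 measured genes rose and 5 fell. Tgfb3, a TGF-beta ligand, read 2.27, 2.08, 2.13 and 2.43 and then 5.41, 4.99, 5.21 and 5.08, and rose by 2.95 (SE 0.14, adjusted p 2.25e-12). Secreted Wnt modulators rose in 11 of 17 measured genes and fell in 0 (median 1.75). Across the alternatives run 9 to 12 were called higher, and the median ran from 0.468 to 1.93. Sfrp2, a decoy for Wnt ligands, read -1.64, -1.06, -2.05 and -2.39 at 24 h and 5.89, 5.18, 5.38 and 4.76 at 168 h, and Dkk3 read -2.13, -2.17, -2.76 and -2.98 and then 4.38, 3.93, 4.24 and 3.77. Both moved by over 6 log2 units with no overlap, by 7.09 (SE 0.35, adjusted p 2.53e-12) and 6.59 (SE 0.28, adjusted p 4.49e-13). Frzb, another such decoy, rose by 3.81 (SE 0.27).

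Lists of fibroblast state markers differed in how far they rose. The list of matrifibrocytes and cartilage-like cells, a late state described in scars, had 14 of 16 measured genes higher and 0 lower, with a median of 3.57. Myofibroblast genes had 18 of 23 higher and 2 lower (median 1.94), and genes of resting cardiac fibroblasts had 13 of 20 higher and 3 lower (median 1.13). The matrifibrocyte list holds Ecrg4, Comp, Fmod, Sfrp2 and Col8a2, which are among the largest rises, and shares Cilp with the myofibroblast list. Members were chosen with earlier results of these data known, so the medians describe the lists and do not rank the states. Cilp, a cartilage matrix protein, read -1.38, -0.85, -0.86 and -1.29 and then 4.59, 4.58, 4.67 and 4.47, with little spread at either time (5.67, SE 0.29, adjusted p 3.32e-12). Cthrc1, which limits collagen deposition, read -0.62, 0.01, -0.42 and -0.77 and then 5.51, 5.30, 5.54 and 5.37 (5.88, SE 0.23, adjusted p 1.86e-13). Fap, a serine protease of activated fibroblasts, rose by 3.30 (SE 0.17), and Lrrc15, a membrane protein of such cells, rose at least 18.8-fold from a signal not well above background (adjusted p 1.67e-07). Acta2, the smooth muscle actin used to define myofibroblasts, hardly moved. Its levels were 5.27, 5.22, 5.29 and 5.36 at 24 h and 5.35, 5.62, 5.66 and 5.56 at 168 h, overlapping, with a change of 0.26 (SE 0.10, adjusted p 0.0243) that was no longer called in 9 alternatives (adjusted p 0.0511 to 0.477). Of the resting markers, Dpt, dermatopontin, rose by 2.94 (SE 0.19), the calcification inhibitor Mgp by 2.44 (SE 0.17) and the progenitor antigen Cd34 by 1.24 (SE 0.10). Ptn, pleiotrophin, a heparin-binding growth factor, rose by 7.72 (SE 0.36, adjusted p 1.54e-12), and Cemip, which starts hyaluronan breakdown, rose at least 30.5-fold (adjusted p 3.32e-12).

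Proteases of the matrix and their inhibitors split into 12 higher and 10 lower of 25 measured genes. Mmp2, the gelatinase of fibroblasts, read 0.86, 0.73, 0.47 and -0.21 at 24 h and 4.24, 4.09, 3.85 and 3.76 at 168 h, and rose by 3.53 (SE 0.22, adjusted p 6.81e-11). The membrane-anchored Mmp23 rose by 3.45 (SE 0.20). Mmp9, the gelatinase of neutrophils, named after its values were seen, read 1.18, 1.61, 1.76 and 1.32 and then -7.09, -2.78, -2.50 and -3.61, and fell by 5.46 (SE 0.81, adjusted p 8.18e-06), with 3 of the 4 arrays at 168 h well above background and a change of -4.43 without replicate 1 at 168 h. Mmp2 and Mmp9 thus moved in opposite directions with no overlap in either. Among the inhibitors Timp2 rose by 2.84 (SE 0.16, adjusted p 1.58e-11), while Timp1 read 6.14, 6.55, 6.38 and 6.13 and then 5.08, 5.62, 5.81 and 5.61, and fell by 0.77 (SE 0.17, adjusted p 0.000559). Timp4, the inhibitor most restricted to the heart, also named after its values were seen, fell by 3.02 (SE 0.53, adjusted p 5.34e-05).

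**Figure D3:**
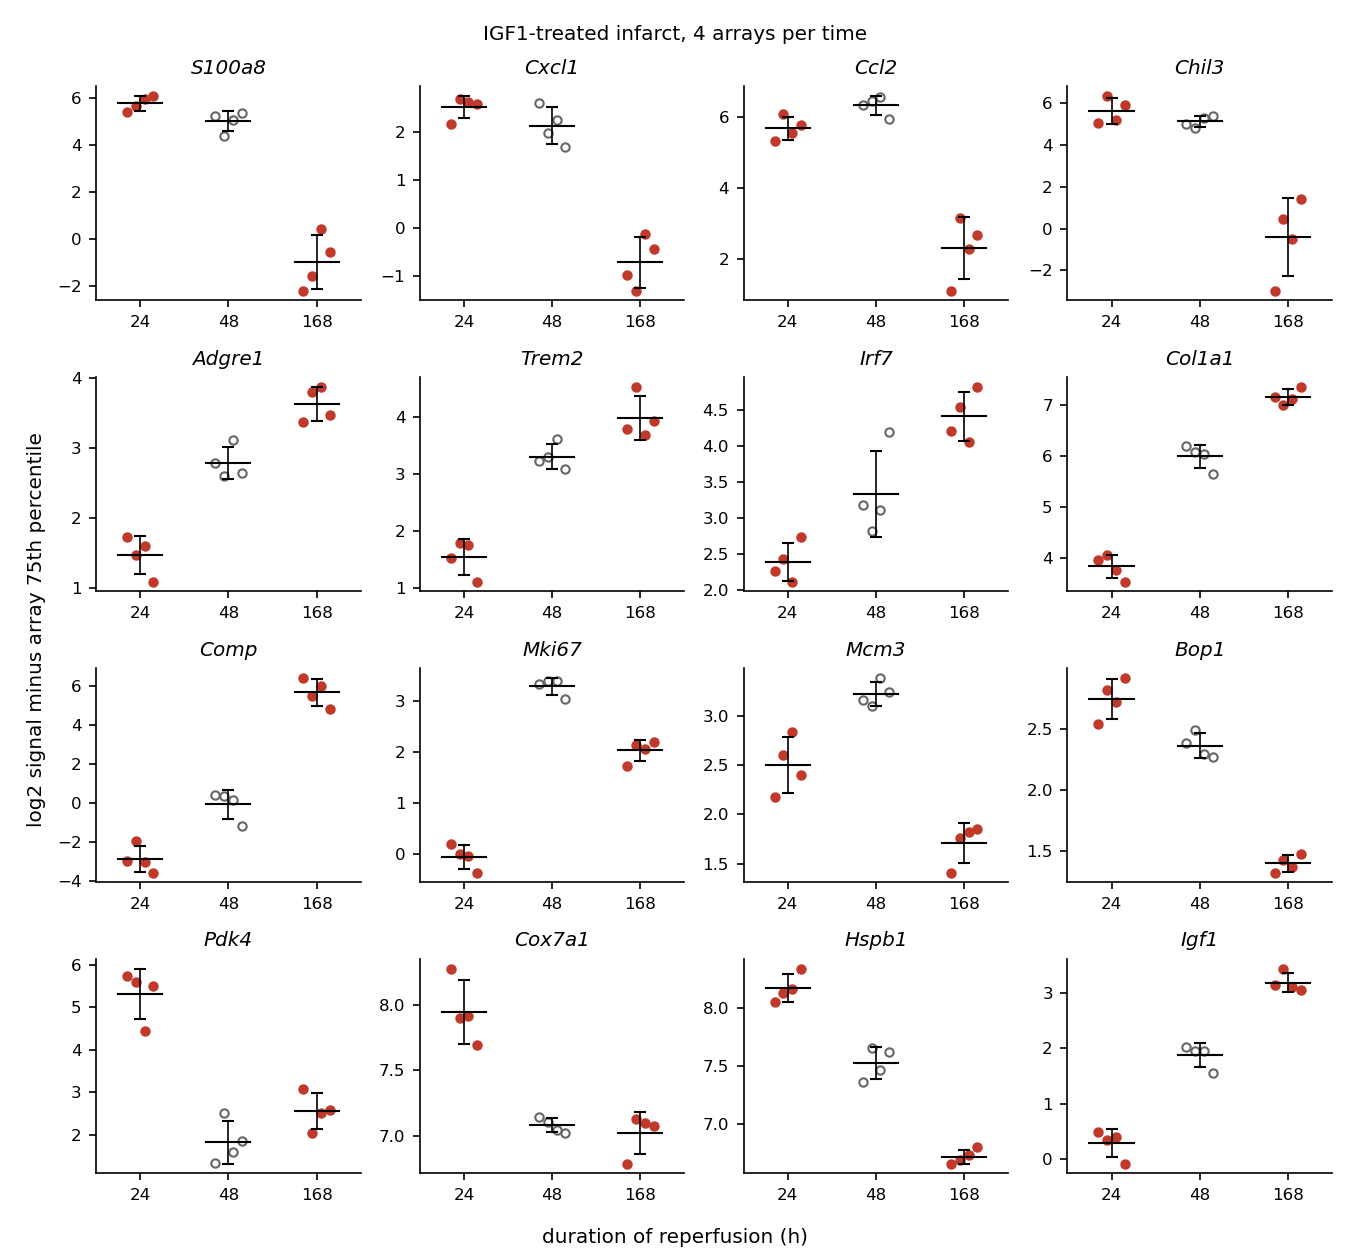
Log2 level (vertical axis, minus the array's 75th percentile) on each of 4 arrays after 24, 48 and 168 h of reperfusion (horizontal axis) for 16 genes in IGF1-treated hearts, with the mean as a bar and the SD as whiskers; filled red circles are the 2 times compared and open grey circles the 48 h arrays. S100a8 and Ccl2 stay high at 48 h and are low at 168 h, Col1a1 and Comp climb at each time, and Mki67 and Mcm3 are highest at 48 h.

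Genes of mitosis and of DNA replication, which are commonly read together as proliferation, did not move together. Mitosis genes rose, while more replication genes fell than rose, by small amounts. Of 28 genes of mitosis and cytokinesis 28 rose and 0 fell, with a median of 1.72. Of 26 measured genes of DNA replication 15 fell and 2 rose, with a median of -0.50. The mean of the mitosis list was -2.37 to -1.86 at 24 h and -0.67 to -0.09 at 168 h, while that of the replication list was 0.29 to 0.72 and then -0.14 to 0.36, which overlapped. Mki67, the Ki-67 antigen of cycling cells, had levels of 0.20, -0.01, -0.05 and -0.37 at 24 h and 1.72, 2.13, 2.05 and 2.20 at 168 h. Ccnb2, a mitotic cyclin, had -1.71, -1.48, -2.04 and -2.31 and then 0.46, 1.06, 1.07 and 1.23. Every 168 h array was above every 24 h array for both, with changes of 2.08 (SE 0.30, adjusted p 4.81e-06) and 2.84 (SE 0.30, adjusted p 7.77e-08). Its relative Ccnb1 rose by 2.43 (SE 0.40), the kinetochore motor Cenpe by 2.27 (SE 0.29) and Ect2, which places the cleavage furrow, by 1.64 (SE 0.22). On the side of replication, Mcm3, a subunit of the helicase, read 2.17, 2.60, 2.83 and 2.40 at 24 h and 1.41, 1.76, 1.82 and 1.85 at 168 h, and Pcna, the sliding clamp, read 3.37, 3.69, 3.63 and 3.64 and then 2.49, 3.06, 2.84 and 2.96. Neither overlapped, and the falls were 0.79 (SE 0.13, adjusted p 2.93e-05) and 0.74 (SE 0.11, adjusted p 5.19e-06). The helicase subunit Mcm4 fell by 0.63 (SE 0.11) and its loader Cdc6 by 0.96 (SE 0.15). On slides 1 and 4 alone 8 replication genes were lower and 3 higher, where 4022 of all 15874 genes were lower. The mean change of the replication list was -0.18 within slide 1 and -0.07 within slide 4, so its fall was slight there. For the mitosis list these means were 1.57 and 2.27. Both lists were highest between the times compared: at 48 h the list means were 0.80 to 1.09 for mitosis and 1.45 to 1.63 for replication, above all 24 h and 168 h arrays.

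Many promoters of mitotic genes carry a CCAAT box, which binds the factor NF-Y, and a cell cycle homology region, TTTGAA, which binds the MuvB complexes that time mitotic transcription. In RefSeq promoter windows of build GRCm38.p6, 300 bases around the start of the gene and 1 window a gene, CCAAT was present on either strand in 19 of the 23 mitosis genes with a window (82.6%) and TTTGAA in 18 (78.3%). Among 27025 windows of the table the shares were 37.9% and 18.1%, and among genes tested here 38.3% and 12.8%. The 22 replication genes with a window held them in 59.1% and 13.6%. The 2 motifs were searched for separately on both strands and can share a base, and a match describes the sequence without showing that a site is used. Windows of 4 genes of the mitosis list are printed to show the spacing of the motifs, which stand in capitals on whichever strand they match. Cdk1 is the mitotic kinase (chr10:69352863-69353162, minus strand), Ccnb2 the cyclin described above (chr9:70421505-70421804, minus strand), Cdc20 the activator of the anaphase-promoting complex (chr4:118437294-118437593, minus strand) and Mki67 the antigen above (chr7:135716330-135716629, minus strand).
Cdk1: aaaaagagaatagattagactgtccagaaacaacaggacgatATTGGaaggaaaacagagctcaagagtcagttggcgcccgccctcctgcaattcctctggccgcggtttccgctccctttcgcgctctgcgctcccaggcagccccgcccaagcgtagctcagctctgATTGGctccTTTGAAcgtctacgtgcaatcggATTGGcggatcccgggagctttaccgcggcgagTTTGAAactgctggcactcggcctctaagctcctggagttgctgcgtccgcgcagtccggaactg
Ccnb2: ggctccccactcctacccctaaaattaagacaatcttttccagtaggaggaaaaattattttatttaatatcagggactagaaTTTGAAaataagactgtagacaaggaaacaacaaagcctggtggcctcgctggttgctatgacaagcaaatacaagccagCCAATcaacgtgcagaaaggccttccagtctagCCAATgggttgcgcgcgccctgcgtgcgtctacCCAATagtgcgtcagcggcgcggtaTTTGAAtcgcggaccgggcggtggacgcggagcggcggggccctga
Cdc20: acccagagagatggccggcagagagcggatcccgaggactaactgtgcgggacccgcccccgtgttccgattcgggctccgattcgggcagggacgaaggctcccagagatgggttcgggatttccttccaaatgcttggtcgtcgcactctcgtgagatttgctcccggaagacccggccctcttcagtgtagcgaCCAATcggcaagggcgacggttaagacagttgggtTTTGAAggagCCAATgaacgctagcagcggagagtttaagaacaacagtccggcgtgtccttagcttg
Mki67: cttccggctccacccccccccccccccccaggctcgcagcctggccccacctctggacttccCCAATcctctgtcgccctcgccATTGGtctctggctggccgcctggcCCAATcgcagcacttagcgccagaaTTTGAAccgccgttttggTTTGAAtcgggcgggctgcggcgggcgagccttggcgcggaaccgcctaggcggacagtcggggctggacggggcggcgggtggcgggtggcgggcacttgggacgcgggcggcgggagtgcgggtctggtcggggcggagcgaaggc
Cdk1 and Ccnb2 held 3 CCAAT and 2 TTTGAA matches each, Mki67 likewise 3 and 2, and Cdc20 held 2 and 1.

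Ribosome biogenesis, the nucleolar making of ribosomes, fell in 20 of 20 genes with a median of -1.49, and it did so under every alternative whose count was taken. Ddx21, a nucleolar RNA helicase, read 1.63, 1.97, 2.31 and 2.62 at 24 h and -0.20, -0.07, -0.15 and 0.01 at 168 h. Bop1, which processes ribosomal RNA, read 2.53, 2.82, 2.71 and 2.92 and then 1.33, 1.43, 1.37 and 1.48, and the chaperone Nolc1 fell by 1.57 (SE 0.11). The arrays did not overlap, with falls of 2.23 (SE 0.14, adjusted p 7.47e-11) for Ddx21 and 1.34 (SE 0.08, adjusted p 8.27e-11) for Bop1. Myc, the transcription factor that drives nucleolar genes, read 0.21, 0.80, 0.69 and 1.24 and then -1.50, -1.34, -1.20 and -1.15, and fell by 2.03 (SE 0.15, adjusted p 4.78e-10). Among 22 immediate early and ERK feedback genes 11 fell and 6 rose. Fosl1, an AP-1 subunit, had the largest fall of them at 5.0 (SE 0.31, adjusted p 7.17e-11), measured above background on 2 of the 4 arrays at 168 h, while Egr3, a zinc finger factor, rose by 1.47 (SE 0.19, adjusted p 1.61e-06).

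Genes for burning fat and for mitochondrial respiration were lower at 168 h. Of 30 genes of fatty acid oxidation 23 fell and 0 rose (median -0.73), of 31 of oxidative phosphorylation 28 fell and 0 rose (median -0.48) and of 21 of the tricarboxylic acid cycle 18 fell and 0 rose (median -0.49). Pdk4, the kinase that shuts pyruvate out of mitochondria, had levels of 5.74, 5.58, 4.43 and 5.49 at 24 h and 3.07, 2.03, 2.50 and 2.59 at 168 h. Cd36, the fatty acid transporter, read 4.78, 4.81, 4.32 and 4.55 and then 3.22, 3.50, 3.35 and 3.35. Both were lower on every 168 h array, by 2.76 (SE 0.33, adjusted p 5.6e-07) and 1.26 (SE 0.15, adjusted p 4.76e-07). The thioesterase Acot2 fell by 1.89 (SE 0.23) and the reductase Decr1, which handles unsaturated fats, by 1.04 (SE 0.14). Respiratory chain genes fell less. Cox7a1, a muscle subunit of cytochrome oxidase, read 8.28, 7.90, 7.92 and 7.69 and then 6.78, 7.13, 7.10 and 7.08 (-0.93, SE 0.15, adjusted p 1.52e-05). Ndufa9 of complex I read 5.50, 5.10, 5.05 and 5.03 and then 4.19, 4.58, 4.61 and 4.66 (-0.66, SE 0.14, adjusted p 0.000371), and Uqcrc1 of complex III fell by 0.62 (SE 0.12). In the cycle itself Idh3b fell by 0.81 (SE 0.17) and Suclg1 by 0.71 (SE 0.14).

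The counts and sizes of these falls were also taken without single arrays, within slides and with another normalization. The mean of the oxidative phosphorylation list was 6.94 on replicate 1 at 24 h and 6.57 to 6.60 on the other 3, and at 168 h it was 5.97 to 6.34. That replicate was also the highest for the contractile genes, whose list mean ran from 5.77 to 6.02 at 24 h and from 5.60 to 5.73 at 168 h. Without it 24 genes of oxidative phosphorylation, 14 of the tricarboxylic acid cycle and 22 of fatty acid oxidation were lower, and without replicate 1 at 168 h the counts were 24, 14 and 23. Within slide 1, which held that replicate, the mean changes were -0.79, -0.82 and -1.23, and within slide 4 they were -0.23, -0.21 and -0.57. With quantile normalization 13, 8 and 20 genes were lower. The part of muscle content in these falls was not tested.

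Sugar metabolism fell in part, with 13 of 25 genes lower and 1 higher. Slc2a1, the glucose transporter GLUT1, read 2.64, 2.45, 2.92 and 3.05 at 24 h and 1.48, 1.54, 1.64 and 1.51 at 168 h, and fell by 1.22 (SE 0.11, adjusted p 1.36e-08). Hk1, a hexokinase, fell by 0.75 (SE 0.11, adjusted p 1.04e-05).

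Contractile genes of heart muscle moved little by comparison. Of 23 genes 8 were lower, 2 were higher and 13 missed the threshold (median -0.23), and with quantile normalization 4 were lower and 3 higher. Myh6, the alpha myosin heavy chain, read 8.22, 8.17, 8.05 and 8.29 at 24 h and 7.93, 7.78, 7.96 and 8.29 at 168 h, overlapping, with a change of -0.19 (SE 0.14, adjusted p 0.264), which was -0.32 with adjusted p 0.0395 when arrays were set to their median. Csrp3, a stretch sensor of the Z-disc, read 6.96, 6.99, 7.13 and 7.28 and then 5.84, 5.95, 5.92 and 5.83, and fell by 1.20 (SE 0.11, adjusted p 1.58e-08). Tnni3, cardiac troponin I, fell by 0.62 (SE 0.13, adjusted p 0.000447). Mybpc3, a myosin binding protein of the thick filament, moved the other way, from 7.81, 7.30, 7.51 and 7.15 to 8.27, 8.13, 8.35 and 8.31, a rise of 0.82 (SE 0.12, adjusted p 1.01e-05). Among 26 genes of calcium handling and ion channels 5 fell, 2 rose and 19 did not pass. Atp2a2, the calcium pump SERCA2, read 6.96, 6.52, 6.51 and 6.60 and then 5.99, 6.22, 6.13 and 6.43, a change of -0.46 (SE 0.16, adjusted p 0.0211) that was lost with quantile normalization (adjusted p 0.251), without replicate 1 at 24 h (adjusted p 0.0839) and without replicate 1 at 168 h (adjusted p 0.0706). Among 15 measured adrenergic, muscarinic and angiotensin genes 5 fell and 1 rose, with Chrm2, the vagal receptor, lower by 1.04 (SE 0.14, adjusted p 2.51e-06) and Agt, angiotensinogen, lower on every array, from 0.09, 0.08, -0.56 and -0.91 to -1.80, -1.64, -1.65 and -1.65.

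Genes of the fetal program, which muscle re-expresses under load, did not move as one. Of 13 measured genes 4 rose and 4 fell. Myh7, the slow beta myosin heavy chain, read 4.82, 4.97, 4.58 and 4.54 at 24 h and 7.20, 6.66, 6.84 and 5.35 at 168 h. It rose by 1.78 (SE 0.38, adjusted p 0.000454), with replicate 4 at 168 h well below the other 3 yet above all 24 h arrays. Nppa, the atrial natriuretic peptide, read 8.02, 7.96, 8.04 and 8.19 and then 8.49, 8.24, 8.57 and 8.44 and rose by 0.38 (SE 0.11, adjusted p 0.0064), which with arrays set to their median was 0.26 (adjusted p 0.0519). Nppb, the brain natriuretic peptide of stretched ventricle, went the opposite way, from 7.13, 6.87, 7.36 and 7.64 to 6.36, 6.22, 6.45 and 6.53, and fell by 0.86 (SE 0.17, adjusted p 0.00024). Xirp1, which repairs intercalated discs, fell by 1.85 (SE 0.21), and Ankrd2, a stretch-responsive ankyrin repeat protein of the sarcomere, read 1.64, 2.95, 2.55 and 3.17 and then -3.50, -3.59, -3.71 and -4.42, a change of -6.38 (SE 0.36, adjusted p 1.49e-11).

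Stress response genes were lower at 168 h. Of 15 heat shock chaperone genes 13 fell and 0 rose (median -0.75). Hspb1, a small chaperone of muscle, read 8.05, 8.12, 8.16 and 8.34 at 24 h and 6.65, 6.69, 6.73 and 6.79 at 168 h, and Cryab, its partner, read 8.21, 8.34, 8.39 and 8.45 and then 6.98, 7.03, 7.16 and 7.03. The sets were over 1 log2 unit apart, with falls of 1.45 (SE 0.11, adjusted p 5.72e-10) and 1.30 (SE 0.10, adjusted p 1.28e-09). The inducible chaperone Hspa1a fell by 2.70 (SE 0.26). Endoplasmic reticulum stress genes fell in 16 of 21 cases and rose in 1 (median -0.69). Hspa5, the chaperone BiP, read 6.17, 6.08, 6.81 and 6.97 and then 5.16, 5.39, 5.03 and 5.26 (adjusted p 6.9e-07), with 24 h arrays spread over nearly 1 log2 unit. Sdf2l1 and Manf, which the unfolded protein response induces, fell by 2.24 (SE 0.26) and 1.10 (SE 0.14).

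Genes of heme, iron, metallothioneins and oxidant defence fell in 15 of 25 cases and rose in 4 (median -0.52). Mt2, a metal-binding metallothionein, read 7.69, 7.94, 7.78 and 7.91 at 24 h and 5.51, 5.36, 5.44 and 5.19 at 168 h, a 5.48-fold fall (2.45, SE 0.12, adjusted p 2.53e-12). Its tandem copy Mt1 fell by 1.58 (SE 0.11). Hmox1, heme oxygenase, read 3.94, 4.45, 4.55 and 4.29 and then 2.53, 3.25, 2.83 and 3.18 (-1.36, SE 0.18, adjusted p 1.54e-06), with a higher 48 h mean of 5.42. Sod3, the extracellular superoxide dismutase, rose by 1.79 (SE 0.16, adjusted p 6.18e-09). Tnfrsf12a, the receptor for TWEAK, fell by 1.66 (SE 0.24, adjusted p 6e-06) in a list of apoptosis and cell death regulators in which 11 of 26 measured genes rose and 7 fell. FoxO-controlled atrophy genes, which AKT holds down, had 7 higher and 7 lower of 21 measured.

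Genes of the tissue's own IGF system changed in both treated and vehicle hearts. Of 18 measured genes 12 rose and 4 fell in treated hearts (median 0.91), and 13 rose and 2 fell in vehicle hearts (median 0.95). The difference between the 2 changes was called for 1 of the 18, more positive in treated hearts. The values that follow are those of treated hearts. Igf1, the endogenous ligand, had levels of 0.50, 0.34, 0.40 and -0.08 at 24 h and 3.14, 3.43, 3.10 and 3.05 at 168 h. It was 7.42-fold higher with no overlap (2.89, SE 0.16, adjusted p 1.44e-11), and its 48 h mean of 1.87 lay between. An array probe reads the mouse transcript and not the injected protein. The signalling receptor Igf1r read 1.52, 1.81, 1.81 and 1.77 and then 1.19, 0.83, 1.16 and 0.66, a fall of 0.77 (SE 0.16, adjusted p 0.000343). Igf2r, the clearance receptor, rose by 0.77 (SE 0.07, adjusted p 1.37e-08), the same size in the other direction. Binding proteins, which carry IGF1 and control its access to the receptor, were split. Igfbp3, the main carrier in blood, read 3.11, 3.95, 3.31 and 3.62 and then 2.31, 1.94, 2.26 and 1.69, and fell by 1.45 (SE 0.21, adjusted p 7.56e-06). Igfbp6 rose by 2.39 (SE 0.13, adjusted p 1.37e-11), Igfbp4 by 2.26 (SE 0.15, adjusted p 1.52e-10) and Igfbp5, which sits in the matrix, by 1.73 (SE 0.28, adjusted p 2.21e-05). For Igfbp5 replicate 1 at 24 h, at 1.47, stood over 1 log2 unit above the other 3, and the change was 0.74 within slide 1 and 2.33 within slide 4.

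Endothelial genes leaned down, with 14 of 26 lower and 4 higher (median -0.34). Pecam1, the adhesion molecule CD31, read 0.28, 0.75, 0.35 and 0.68 at 24 h and -0.08, -0.01, -0.02 and 0.20 at 168 h, and fell by 0.49 (SE 0.11, adjusted p 0.000646). Nos3, the endothelial nitric oxide synthase, fell by 0.87 (SE 0.11). Against that direction, Aplnr, the apelin receptor of sprouting veins, rose by 2.10 (SE 0.24, adjusted p 2.27e-07) and Esm1, a marker of tip cells, by 1.56 (SE 0.19, adjusted p 7.04e-07). The ligand Apln fell while its receptor rose, from 2.08, 2.54, 2.81 and 2.42 to 0.66, 0.72, 0.88 and 0.66 (-1.73, SE 0.20, adjusted p 3.63e-07). Among 24 hypoxia and angiogenic genes 10 fell and 7 rose, with Vegfd, a lymphatic growth factor, higher by 2.56 (SE 0.23, adjusted p 1.28e-08). Of 16 measured leukocyte adhesion genes 7 fell and 3 rose: Sele, the selectin of inflamed endothelium, fell by 1.78 (SE 0.20, 3 of the 4 arrays at 168 h well above background) and Vcam1, the ligand of lymphocyte and monocyte integrins, rose by 1.30 (SE 0.16). Smooth muscle and pericyte genes rose in 9 of 18 cases and fell in 2.

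Markers of other tissues that a dissection could carry were checked beside these results. Lung epithelium had 7 of 11 genes measured, none of them the surfactant proteins Sftpa1, Sftpb, Sftpc and Sftpd, with 3 lower and 0 higher and a summed level, as list mean, of -1.18 to -0.73 at 24 h and -1.53 to -1.06 at 168 h. Skeletal muscle had 9 of 16 measured, 3 higher and 0 lower, and its list mean went from between -0.93 and -0.60 to between -0.20 and 0.03, without overlap. Adipocytes had 11 of 15 measured, 1 higher and 3 lower, with overlapping means of -1.49 to -0.98 and -1.61 to -0.71. Globin and other erythrocyte genes, 9 of 11 measured, had 3 lower and 0 higher and list means of 0.07 to 0.89 and -2.07 to -0.23, which did not overlap. The part of retained blood in the falls of blood cell markers was not tested.

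**Figure D4:**
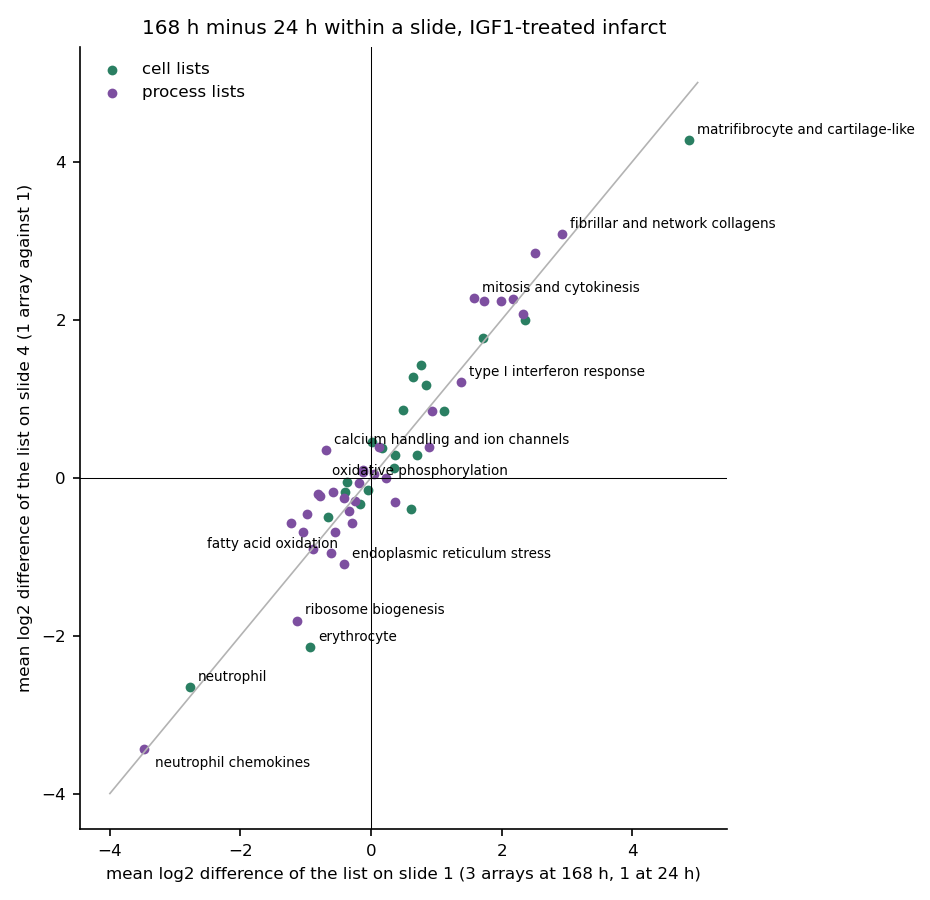
Mean log2 change from 24 h to 168 h of each list within slide 1 (horizontal axis, 3 arrays at 168 h against 1 at 24 h) and within slide 4 (vertical axis, 1 array against 1), with the line of equal change in grey. Matrix and neutrophil lists agree in size on both slides, while oxidative phosphorylation (-0.79 and -0.23) and calcium handling (-0.69 and 0.35) do not.

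The same interval was then compared between treated and vehicle hearts. In vehicle hearts 9533 genes (60.1%) passed, 4656 higher (29.3%) and 4877 lower (30.7%), and of the 9214 genes called in treated hearts 6937 were called in the same direction in vehicle hearts. The difference between the 2 changes was itself called for 1723 genes (10.9%), 980 with a more positive change in treated hearts (6.17%) and 743 with a more negative one (4.68%). That count was 418 on slides 1 and 4 alone and between 987 and 2385 when single arrays were left out. It fell by over 1.5 times, to 987, 1051 and 1078, without replicate 1 of the treated hearts at 24 h, replicate 2 of the vehicle hearts at 24 h and replicate 2 of the vehicle hearts at 168 h.

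For matrix and neutrophil genes few differences were called. The difference was called for 1 of 24 collagen genes, 0 of 14 small leucine-rich proteoglycans, 0 of 22 interferon genes, 0 of 20 ribosome biogenesis genes and 1 of 25 neutrophil genes. The neutrophil gene was Lcn2, which changed by -6.66 in treated and -4.66 in vehicle hearts (difference -1.99, SE 0.56, adjusted p 0.0295), a call lost in 9 alternatives. The collagen was Col27a1, a fibrillar chain chosen after its values were seen, with a difference of 0.56 (adjusted p 0.0499). Comp changed by 8.52 in treated and 8.61 in vehicle hearts, S100a8 by -6.79 and -7.11, and Bop1 by -1.34 and -1.41. A difference that misses the threshold does not show that the changes were equal.

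Cell cycle genes differed most as lists. The difference was called for 20 of 28 mitosis genes and 21 of 26 replication genes, every one of them with a more positive change in treated hearts. In vehicle hearts 6 mitosis genes rose (median 0.44) and 25 replication genes fell (median -1.17). The list means stood further apart at 24 h than at 168 h. The mean of the replication list was 0.29 to 0.72 in treated and 0.75 to 1.30 in vehicle hearts at 24 h, and it was -0.14 to 0.36 and -0.18 to 0.09 at 168 h, where they overlapped. For mitosis the 24 h means were -2.37 to -1.86 in treated and -2.21 to -0.41 in vehicle hearts, with 1 vehicle array inside the treated range. Ect2 rose by 1.64 in treated and by 0.18 in vehicle hearts (difference 1.46, SE 0.31, adjusted p 0.00729), and Cenpe differed by 1.56 (SE 0.41, adjusted p 0.0213). Mcm3 fell by 0.79 in treated and by 1.56 in vehicle hearts (difference 0.77, SE 0.19, adjusted p 0.0147), and Mcm4 differed by 0.64 (SE 0.15, adjusted p 0.0129). The difference for Cenpe was lost when the fit held just the arrays of the groups compared (adjusted p 0.0585). Those of Mki67 and Ccnb2, 1.41 and 1.38, were lost in 14 and 16 of 29 alternatives. Counts of differences by list were taken in the main fit alone.

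Of the 30 fat oxidation genes 23 fell and 0 rose in treated hearts, and 3 fell and 4 rose in vehicle hearts (median 0.03). The difference was called for 21 of the 30, each more negative in treated hearts. The list mean at 24 h was 4.14 to 4.86 in treated and 3.50 to 3.79 in vehicle hearts, without overlap, and at 168 h it was 3.56 to 3.73 and 3.39 to 4.01. The change of Pdk4 differed by -2.03 (SE 0.47, adjusted p 0.0121), that of Cd36 by -1.11 (SE 0.21, adjusted p 0.00455) and that of Acot2 by -1.56 (SE 0.33, adjusted p 0.00726). Oxidative phosphorylation differed for 6 of 31 genes and the tricarboxylic acid cycle for 5 of 21, again all more negative in treated hearts. For calcium handling and ion channels it was 7 of 26, with Atp2a2 down by 0.46 in treated and up by 0.43 in vehicle hearts (difference -0.89, SE 0.23, adjusted p 0.0205).

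**Figure D5:**
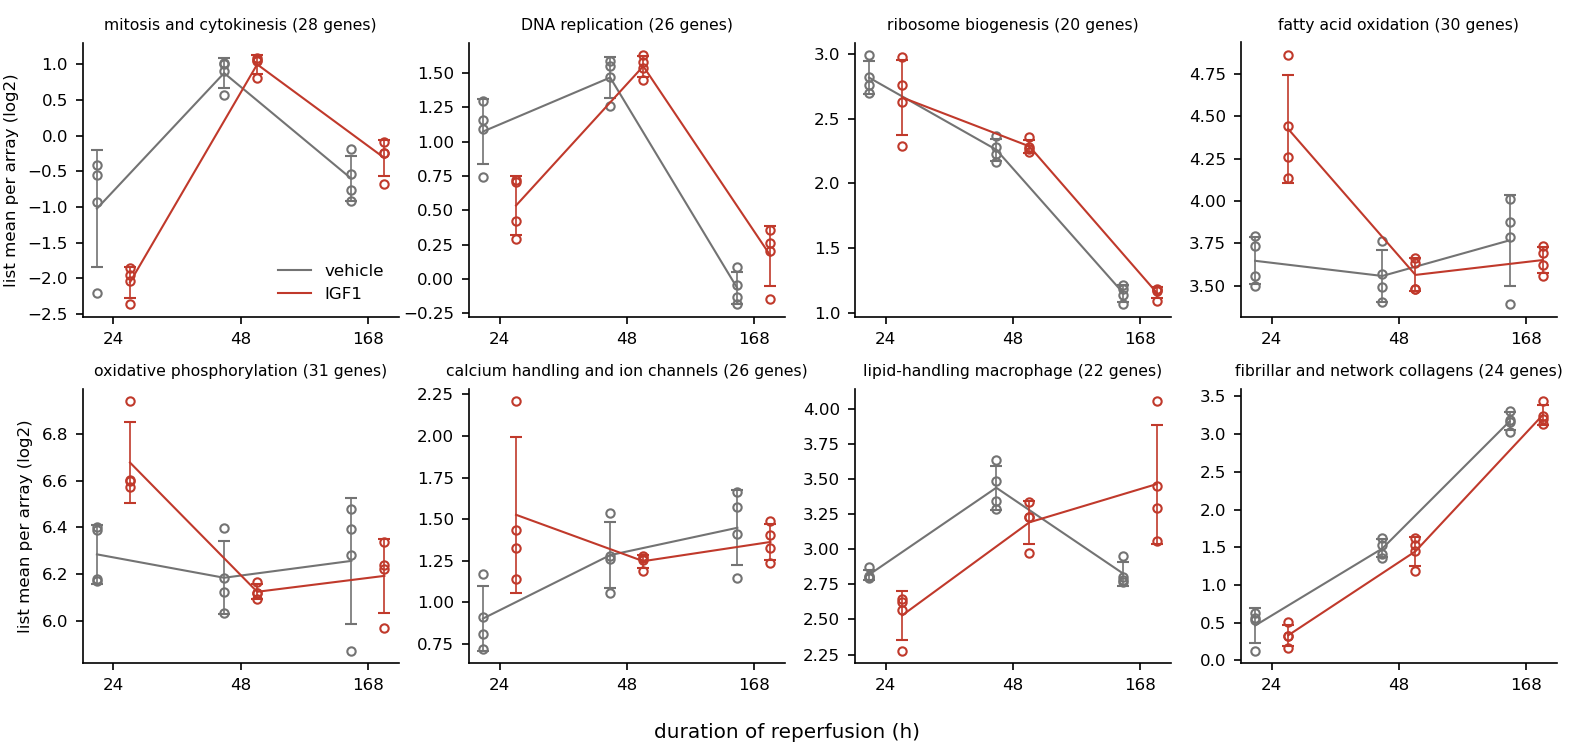
Mean log2 level of 8 lists (vertical axis) on each array of IGF1-treated (red) and vehicle (grey) hearts after 24, 48 and 168 h of reperfusion (horizontal axis), circles being arrays, lines group means and whiskers the SD of 4 arrays. The treated hearts sit apart at 24 h for DNA replication (0.29 to 0.72 against 0.75 to 1.30) and fatty acid oxidation (4.14 to 4.86 against 3.50 to 3.79), and the 2 kinds of heart run together for collagens.

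Some macrophage genes also had a more positive change in treated hearts. The difference was called for 10 of 27 genes of resident and reparative macrophages and for 10 of 22 of lipid-handling macrophages in the positive direction, and for 0 and 3 in the negative one. Of 16 monocyte genes it was called for 5 in the positive direction and 1 in the negative one. The lipid-handling list mean was 2.28 to 2.65 in treated and 2.80 to 2.87 in vehicle hearts at 24 h. At 168 h it was 3.06 to 4.05 and 2.76 to 2.95. The mean of the resident and reparative list overlapped at both times, at 0.53 to 1.00 and 0.81 to 1.17, then 1.46 to 1.81 and 1.33 to 1.58. Trem2 rose by 2.44 in treated and by 0.55 in vehicle hearts (difference 1.89, SE 0.28, adjusted p 0.0012), Csf1r differed by 0.91 (SE 0.13, adjusted p 0.0012), Adgre1 by 1.12 (SE 0.22, adjusted p 0.00575) and Fn1 by 0.98 (SE 0.21, adjusted p 0.0085). Gpnmb differed by 3.10 (SE 0.56, adjusted p 0.00331). The widest gap among the genes named was that of Spp1, which fell by 3.92 in vehicle hearts, from a mean of 6.28 (SD 0.16, n = 4) to 2.36 (SD 0.08, n = 4), and in treated hearts read 5.13 (SD 0.40, n = 4) at 24 h and 5.20 (SD 1.64, n = 4) at 168 h. The difference of 4.0 (SE 0.67, adjusted p 0.00244) rested on treated 168 h arrays that were up to 3.83 log2 units apart. Igf1 itself rose by 2.89 in treated and 2.02 in vehicle hearts (difference 0.88, SE 0.23, adjusted p 0.0205), and Hmox1 fell by 1.36 and by 2.79 (difference 1.43, SE 0.25, adjusted p 0.00311). On slides 1 and 4 alone the differences of Spp1, Gpnmb, Adgre1, Igf1, Acot2 and Atp2a2 were of similar size and had adjusted p of 0.083, 0.0843, 0.0736, 0.0717, 0.055 and 0.158.

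Among the 10 genes with the smallest p for the difference, 5 were leukocyte genes, each more positive in treated hearts. Cd48, a ligand for natural killer receptors, went from a mean of 0.46 (SD 0.15, n = 4) to 1.86 (SD 0.19, n = 4) in treated hearts and from 1.34 (SD 0.14, n = 4) to 1.50 (SD 0.12, n = 4) in vehicle hearts, a difference of 1.24 (SE 0.16, adjusted p 0.000547). The myeloid receptors Cd300c2 and Cd300ld differed by 1.56 (SE 0.20) and 1.24 (SE 0.17), the exchange factor Cyth4 by 1.07 (SE 0.14) and the lymphocyte adaptor Sash3 by 1.20 (SE 0.17). Ncapg2, a condensin subunit, differed by 1.41 (SE 0.19). More negative in treated hearts were Thrsp, which promotes fat synthesis (-1.87, SE 0.25) and Bend5 (-0.96, SE 0.13). These 8 differences were called in every alternative run.

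The 48 h hearts place the change in time. Of the 2615 genes called with a change over 2-fold, the 48 h mean lay between the 24 h and 168 h means for 2204 (84.3%), beyond the 168 h mean for 154 (5.89%) and on the far side of the 24 h mean for 257 (9.83%). By 48 h the median gene had covered 36% of its change. Programs differed: among genes of the same kind the median was 16.6% for 16 neutrophil genes, 12.7% for 13 T and NK cell genes, 45.9% for 19 collagens, 22.4% for 14 genes of matrifibrocytes, 60.9% for 16 interferon genes, 27.8% for 18 genes of ribosome biogenesis and 78.1% for 7 genes of fatty acid oxidation. All 25 mitosis genes over 2-fold were past their 168 h level at 48 h, with a median of 177%. These shares use the same 24 h and 168 h arrays as the changes and are a description with no test.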

How the data were processed

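Total RNA of 24 samples was hybridised in 1 colour (Cy3) to Agilent 8x60K mouse expression arrays (SurePrint G3), with each sample on its own array, and read with Feature Extraction, per the file headers. The deposited processed intensity of each spot had been corrected for background within the array and not scaled between arrays. The authors also deposited a value table of log2 values centred on each probe, with its scaling not given in the sources used here, which served as an alternative. Control and outlier spots were removed, log2 signals were set to the 75th percentile of each array, and probes well above background on at least 4 of 24 arrays were kept, the brightest a gene. Symbols came from accessions matched to a RefSeq table of GRCm38.p6: 33767 of 56605 probes had 1 symbol, and 22838 had none. Limma 3.58.1 in R 4.3.3 fitted 6 group means over all 24 arrays (18 residual degrees of freedom), with Benjamini-Hochberg adjustment over 15874 genes at 0.05, and gave every adjusted p printed here. The script was tested on simulated data. The number of arrays limits the precision.

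Genes named are the 15 largest non-overlapping rises and falls, the 4 or fewer genes with the lowest p in every list, the 10 smallest p for the difference from vehicle, and 44 genes fixed by name. The members and lists were chosen with earlier results of these data known. Alternatives were another background correction, scaling, dim-probe filter, probe summary, slide or replicate block, array weights, narrower fits, the value table and leaving out each array; the fit on slides 1 and 4 and the fit on every probe kept were chosen after seeing the data. A few genes that met the naming rule are not reported here.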

Additional observations from a re-analysis of the deposited data

Results flagged for a closer look

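In a group of 4 arrays, 1 array was marked when its gap to the nearest of the others exceeded Dixon's 95% limit as a share of the group's range. That happened in 14 of 326 groups of single genes and in 7 of 110 groups of list means, and chance alone marks about 1 in 20.

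Replicate 1 at 24 h lay apart from the other 3 in 4 genes and 3 list means. It was high for Ndufa9 of complex I (5.50), Uqcrc1 of complex III (6.80) and the complement inhibitor Cd55 (-0.66), and low for Igf1r (1.52). Its list means were high for contractile genes (6.02), oxidative phosphorylation (6.94) and the tricarboxylic acid cycle (6.01). Replicate 1 at 168 h was low for Cox7a1 (6.78), Ndufa9 (4.19) and Agt (-1.80) and for the means of glycolysis (4.07) and ribosome biogenesis (1.09). Both arrays lay on slide 1.

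Elsewhere single arrays stood apart in scattered genes. Replicate 2 at 24 h was high for Ctsk (0.97) and for the mean of alternative macrophage activation (1.25), and replicate 4 at 24 h was low for Cd74 (2.22). Replicate 2 at 168 h was low for Col12a1 (1.03) and high for Sdf2l1 (0.26), Manf (2.11) and the mean of mast cell and eosinophil genes (-2.72). Replicate 4 at 168 h was high for Gzma (0.30) and Lum (5.75).

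The change from 24 h to 168 h differed between treated and vehicle hearts by the test of the difference itself for 33 genes whose values are given in the report. It was more positive in treated hearts for Cd48 by 1.24, Cd300c2 by 1.56, Cyth4 by 1.07, Cd300ld by 1.24, Sash3 by 1.20, Ncapg2 by 1.41, Spp1 by 4.0, Gpnmb by 3.10, Trem2 by 1.89, Csf1r by 0.91, Adgre1 by 1.12, Igf1 by 0.88, Hmox1 by 1.43, Ect2 by 1.46, Cenpe by 1.56, Mcm3 by 0.77, Mcm4 by 0.64, Fn1 by 0.98, Ccr2 by 0.97, Siglecf by 1.92, Ccnb2 by 1.38, Mki67 by 1.41, Esm1 by 1.01 and Cx3cr1 by 1.44 on the log2 scale. It was more negative for Thrsp by -1.87, Bend5 by -0.96, Pdk4 by -2.03, Cd36 by -1.11, Acot2 by -1.56, Atp2a2 by -0.89, Lcn2 by -1.99, Ly6c2 by -0.71 and Decr1 by -0.72. The differences of Lcn2, Ccnb2 and Mki67 had adjusted p of 0.0295, 0.0404 and 0.0375 and were lost in 9, 16 and 14 alternatives. On slides 1 and 4 alone those of Ccr2, Ly6c2, Siglecf, Decr1, Esm1 and Cx3cr1 had adjusted p of 0.144, 0.141, 0.0561, 0.163, 0.0623 and 0.158.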

How the results depend on the processing

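The count of 9214 genes called in treated hearts ran from 7492 (slides 1 and 4 alone) to 9917 (array weights) when genes were counted, from 8400 to 9043 when 1 array was left out, and was 16697 of 34461 when every probe was kept, named or not. The count of 1723 genes for the difference from vehicle hearts was 1119 with arrays set to their median, 1000 without a filter on dim probes and 418 on slides 1 and 4 alone, and ran from 987 to 2385 when 1 array was left out. Deviations from the group means were correlated between 24 h and 168 h arrays of the same replicate number. For replicates 1, 2 and 3 the values were -0.00378, 0.0474 and 0.0363. They did not exceed the highest with another number (0.0623, 0.0814 and 0.0364). For replicate 4 the value was 0.257 against at most -0.0574, and both of its arrays were on slide 4. Both arrays of replicate 1, with -0.00378, likewise shared a slide, slide 1. The part of the slide in these values was not tested. With the replicate number as a block 9494 genes were called, 9149 of them among the 9214, and 2123 for the difference. Of 4380 values for single genes 4291 kept their direction and their side of the threshold, 76 lost the call, 1 gained it and 12 turned sign. The sign of Mrc1 turned with arrays set to their median (-0.0257). That of Spp1 turned with arrays set to their median (-0.0489), with array weights (-0.0697) and for 3 of the 8 arrays when each was left out (range -0.56 to 0.72). That of Tnc turned with arrays set to their median (-0.0866), with array weights (-0.128), in the authors' value table (-0.00186) and for 3 of the 8 arrays when each was left out (range -0.12 to 0.20). None of these 3 genes was called. Of 2310 list counts 121 moved by over 1.5 times. The cause of these shifts was not tested, apart from the fewer samples or genes an alternative holds. With normexp background correction 33 of 163 genes changed by over 1.5 times less. Dim probes limit the size of changes for genes near background, where just a bound could be given.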

Other observations

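Of 892 tested genes that RefSeq classes as long noncoding RNA, 219 were higher at 168 h (24.6%), 124 were lower (13.9%) and 549 did not pass, with a median of 0.06. Over all genes tested 26.2% were higher and 31.8% lower. Meg3, an imprinted transcript, was named after its values were seen. It had a mean level of 0.31 (SD 0.22, n = 4) at 24 h and 3.40 (SD 0.21, n = 4) at 168 h, a rise of 3.09 (SE 0.15, limma adjusted p 2.02e-12), and rose by 2.77 in vehicle hearts. Mirt1, a transcript described in infarcted hearts and also chosen after its values were seen, fell by 4.88 (SE 0.43, limma adjusted p 7.22e-09), with 3 of the 4 arrays at 168 h well above background.

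A few coding genes outside the lists were likewise chosen after their values were seen. Piezo2, a channel opened by mechanical force, rose by 4.24 (SE 0.20, limma adjusted p 2e-12). Angptl4, a secreted inhibitor of lipoprotein lipase, had a mean of 5.83 (SD 0.70, n = 4) at 24 h and 3.11 (SD 0.62, n = 4) at 168 h, and fell by 2.72 (SE 0.38, limma adjusted p 3.41e-06). Psat1, an enzyme of serine synthesis, fell by 2.49 (SE 0.20, limma adjusted p 1.85e-09). For none of these 5 genes was the difference of the change from vehicle hearts called.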
